A study of Mus musculus with 24 samples.

Results

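The 10 genes described here form the core of the pathway through which BACH1 and NRF2 set the antioxidant and iron-handling capacity of a cell. They are Bach1, Nfe2l2 (which encodes NRF2), Keap1, Hmox1, Gclm, Gclc, Gsr, Txnrd1, Fth1 and Ftl1, chosen by name, and all 10 of them are among the 20673 gene symbols counted in each library. The choice was made with earlier results of these data known. Messenger RNA was sequenced from activated immune cells of C57BL/6J mice, either wild type (WT) or lacking the microRNA miR-155 (KO), with 3 libraries in each of 8 groups and 24 in all. B cells were isolated from spleen by depleting CD43-bearing cells and were activated with LPS at 25 ug/ml and IL-4 at 6.5 ng/ml. Dendritic cells were CD11c+ spleen cells of mice that had received B16 melanoma cells making Flt3 ligand, and were activated with LPS at 100 ng/ml and GM-CSF at 20 ng/ml, so that WT and KO dendritic cells alike came from tumour-bearing hosts. Macrophages were drawn from the peritoneum after thioglycollate and received LPS at 100 ng/ml. CD4+CD25-CD44- T cells of lymph node and spleen were stimulated on beads coated with anti-CD3 and anti-CD28. The labels give no age of the mice, no time after activation and no number of animals. The 3 libraries of a group are described as sequencing replicates, so the p-values measure the spread between libraries, which may be technical.

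NRF2 is a transcription factor that KEAP1, an adaptor of a ubiquitin ligase, marks for degradation. Oxidants and electrophiles release NRF2 from KEAP1, and NRF2 then binds antioxidant response elements together with small MAF proteins and switches on genes for glutathione synthesis, thioredoxin reduction, heme breakdown and iron storage. BACH1 occupies the same elements with the same MAF partners as a repressor and leaves them when heme binds to it. Hmox1, which encodes heme oxygenase 1, and the 2 ferritin genes are classical genes of this switch in macrophages, which take up and recycle iron. miR-155 is a microRNA of activated lymphocytes and myeloid cells that lowers messenger RNAs carrying its sites, and Bach1 is one of its established targets.

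The sequence of mature miR-155-5p (RefSeq, GRCm38.p6, chromosome 16 from 84714143 to 84714165, plus strand) and the sites for it in the longest annotated 3' UTRs of the 10 genes (GENCODE M21, GRCm38) are shown because the site types set Bach1 and Nfe2l2 apart from most of the other genes. Capitals mark the seed, bases 2 to 8, in the microRNA and the matching bases in each site; every sequence is written 5′ to 3′ on the strand of its gene. An 8mer is AGCATTAA, a 7mer-m8 is AGCATTA, a 7mer-A1 is GCATTAA and a 6mer is GCATTA.
mmu-miR-155-5p: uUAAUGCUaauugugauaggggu
Bach1 8mer, chr16:87732177-87732206, plus strand: atgaacagtttAGCATTAAgggttaatttt
Bach1 7mer-m8, chr16:87732389-87732418, plus strand: atatattgcatAGCATTAtacatgtatgcc
Nfe2l2 8mer, chr2:75675795-75675824, minus strand: aaactttacaaAGCATTAAagtctcaatgt
Gsr 7mer-A1, chr8:33697926-33697955, plus strand: tggaacaaagtGCATTAAagttagacttga
Keap1 6mer, chr9:21229954-21229983, minus strand: tcagtttcaggGCATTAgaagccaatgacc
Hmox1 6mer, chr8:75100563-75100589, plus strand: aataataaatgGCATTAtctaacagtc

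Bach1 held an 8mer at positions 2317 to 2324 and a 7mer-m8 at 2529 to 2535 of a 3' UTR of 3475 bases. Nfe2l2 held 1 8mer, at positions 148 to 155 of a 3' UTR of 448 bases. The site of Gsr, which encodes glutathione reductase, was a 7mer-A1, while Keap1 and Hmox1 held a 6mer only. No site of these types was found in Gclm, Gclc, Txnrd1, Fth1 or Ftl1. Of the 19478 genes of the count files with an annotated 3' UTR, 13.4% held an 8mer or 7mer and 3.18% held an 8mer. A match is a description of the sequence and not a measured site of binding. Bach1 itself lies on chromosome 16 from 87698945 to 87733346, 2984740 bases from Mir155 on the same chromosome.

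Depth was 7428821 to 14219823 gene counts per library, lowest in dendritic cells and highest in macrophages. Mir155 and its host gene are not among the counted symbols, which leaves the KO label without a check on its own target. The labelled cell types were checked on markers. The summed B cell markers (6 genes) reached 3026 to 3292 CPM (counts scaled to a common library total) in WT B cells and 2919 to 3173 in KO B cells. Dendritic cell markers (6 genes) reached 11214 to 12042 in WT and 14638 to 15425 in KO dendritic cells. Macrophage markers (9 genes) reached 15583 to 17722 in WT and 12906 to 14009 in KO macrophages. T cell markers (6 genes) reached 1686 to 1784 in WT and 1619 to 1724 in KO CD4 T cells. TMM normalization over the 24 libraries was applied to all CPM values. A gene is said to rise or fall in KO where the edgeR quasi-likelihood test gave a Benjamini-Hochberg adjusted p under 0.05 over all genes tested in that cell type.

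Before the effect of the knockout, the levels in WT cells show where each gene of the pathway is expressed. Macrophages held the highest level of 8 of the 10 genes, of which Bach1 turned to a higher value in dendritic cells without TMM scaling, and the exceptions were Keap1 and Gclc, which were highest in dendritic cells. The range over cell types was widest for Hmox1. WT macrophages gave 3461, 3434 and 2749 CPM, WT dendritic cells 30.03, 44.98 and 51.8, WT B cells 3.16, 5.84 and 4.42 and WT CD4 T cells 3.04, 3.22 and 3.19. The macrophage level was 1020-fold that of CD4 T cells (log2 difference 9.99, SE 0.33, adjusted p = 2.30e-17), and the lymphocytes did not differ from each other beyond their spread (log2 difference 0.51, SE 0.36, adjusted p = 0.24 for B minus T cells). Fth1, the heavy chain of ferritin, followed the same order over a narrower range, at 53737 ± 9162 CPM in macrophages, 1725 ± 731 in dendritic cells, 637 ± 52.7 in B cells and 163 ± 11.2 in CD4 T cells (SD, n = 3), and each step of that order passed the test. Fth1 alone took 3.42 to 4.66% of the gene counts of a macrophage library. Ftl1, the light chain, stood at 8204 ± 4027, 2167 ± 205, 362 ± 31.7 and 162 ± 3.70 CPM in the same order, again with every step past the threshold. Both ferritin genes have near-identical copies elsewhere in the genome, and how reads shared with those copies were counted is not given in the sources used here.

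The 2 transcription factors showed a different spacing. Bach1 was 60.1 ± 11.2 CPM in WT macrophages, 49.4 ± 6.88 in dendritic cells, 10.2 ± 1.06 in CD4 T cells and 9.95 ± 0.328 in B cells. The step from dendritic cells to T cells was 4.88-fold (log2 difference 2.29, SE 0.13, adjusted p = 9.40e-14), while T and B cells did not differ beyond their spread, at 1.03-fold (log2 difference 0.04, SE 0.14, adjusted p = 0.84). The step from macrophages to dendritic cells was small, 1.22-fold (log2 difference 0.28, SE 0.11, adjusted p = 0.025), and turned to 0.14 in favour of dendritic cells without TMM scaling (adjusted p = 0.23). It was not called without dendritic cell WT replicate 1 or macrophage WT replicate 2, at -0.15 (adjusted p = 0.21) and -0.11 (adjusted p = 0.33) for dendritic cells minus macrophages. Nfe2l2 was 532 ± 115 CPM in macrophages, 71.1 ± 9.10 in dendritic cells, 46.9 ± 1.37 in T cells and 46.3 ± 1.55 in B cells. Here the large step lay between macrophages and dendritic cells, 7.48-fold (log2 difference 2.90, SE 0.12, adjusted p = 3.71e-16), and again T and B cells did not differ beyond their spread, at 1.02-fold (log2 difference 0.03, SE 0.11, adjusted p = 0.88). Keap1 varied least, from 106 ± 5.39 CPM in dendritic cells through 86.6 ± 0.765 in B cells and 78.6 ± 0.639 in T cells to 65.99 ± 4.76 in macrophages.

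Of the glutathione and thioredoxin enzymes, Gsr was 422 ± 18.97 CPM in macrophages, 96.1 ± 9.27 in dendritic cells, 51.4 ± 2.85 in T cells and 26.97 ± 1.27 in B cells, and all 3 steps passed the test. Txnrd1, thioredoxin reductase 1, was 297 ± 41.8 in macrophages, 169 ± 14.3 in B cells, 107 ± 6.01 in T cells and 91.6 ± 11.3 in dendritic cells, the last 2 without a call (adjusted p = 0.058). For dendritic minus T cells that last difference was -0.22 (SE 0.11, adjusted p = 0.058), and it was called without TMM scaling (log2 difference -0.44, adjusted p = 4.01e-04), with replicate numbers as a block (adjusted p = 0.026) and without dendritic cell WT replicate 3, T cell WT replicate 1, macrophage KO replicate 3 or any 1 of the macrophage WT replicates (adjusted p of 0.025 to 0.048). The subunits of glutamate-cysteine ligase, the enzyme that starts glutathione synthesis, had unlike patterns. Gclm, the modifier subunit, was 126 ± 49.96 CPM in macrophages and between 19.5 and 24.6 in the other 3 cell types, which did not differ from each other beyond their spread, although B and dendritic cells both stood above T cells without macrophage WT replicate 2 (adjusted p = 0.024 and 0.038) and B cells also without macrophage WT replicate 3 (adjusted p = 0.041). Gclc, the catalytic subunit, ran from 71.4 ± 3.90 in dendritic cells through 52.3 ± 2.98 in B cells and 48.1 ± 9.18 in macrophages to 38.9 ± 4.21 in T cells. Its macrophage level was above that of T cells with TMM scaling (log2 difference 0.32, SE 0.12, adjusted p = 0.018) and below it without (log2 difference -0.33, adjusted p = 0.0094). The call was lost without macrophage WT replicate 2 (log2 difference 0.14, adjusted p = 0.25) or T cell WT replicate 3 (log2 difference 0.23, adjusted p = 0.10). B cells and macrophages were not called different for Gclc (log2 difference 0.10, SE 0.12, adjusted p = 0.43), but were without TMM scaling (log2 difference 0.63, adjusted p = 1.88e-05) and without macrophage WT replicate 2 (log2 difference 0.29, adjusted p = 0.023).

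Over the 60 comparisons of a gene between a pair of WT cell types, 51 passed the threshold: 9 of 10 genes for B against dendritic cells, 9 for B cells against macrophages, 5 for B against T cells, 10 for dendritic cells against macrophages, 8 for dendritic against T cells and 10 for macrophages against T cells. Most genes differed between these cell types. Of all 12249 genes tested, 80.2% differed between B and dendritic cells, 82.4% between B cells and macrophages, 56.2% between B and T cells, 80.4% between dendritic cells and macrophages, 81.6% between dendritic and T cells and 83.8% between macrophages and T cells, so the counts for the 10 genes lie near the background. The cell types also differ in organ, purification and stimulus, which cannot be told apart from cell type. Without TMM scaling the median of all genes moved by -0.62 on the log2 scale for macrophages minus T cells, 0.40 for dendritic cells minus macrophages and 0.49 for B cells minus macrophages, so levels in macrophages are relative to that choice.

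Levels of different genes are set side by side per length, as CPM per kilobase of coding sequence. That length leaves out untranslated regions, whose reads may also be counted, so genes with long ones can stand too high. Gclm has 822 coding bases beside a 3' UTR of 4335, and Bach1 has 2217 beside 3475. The order of such genes on this scale is therefore rough. On that scale the ferritins led in every WT cell type. In macrophages the means were 98419 for Fth1, 14943 for Ftl1, 3708 for Hmox1, 297 for Nfe2l2, 282 for Gsr, 161 for Txnrd1, 153 for Gclm, 35.3 for Keap1, 27.1 for Bach1 and 25.2 for Gclc. Fth1 and Ftl1 in CD4 T cells stood at 298 and 295 CPM per kilobase, whereas Bach1 and Hmox1 were lowest at 4.58 and 3.64. Nfe2l2 exceeded Bach1 per length in all 4 WT cell types, at 25.9 against 4.49 in B cells and 39.7 against 22.3 in dendritic cells.

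**Figure D1:**
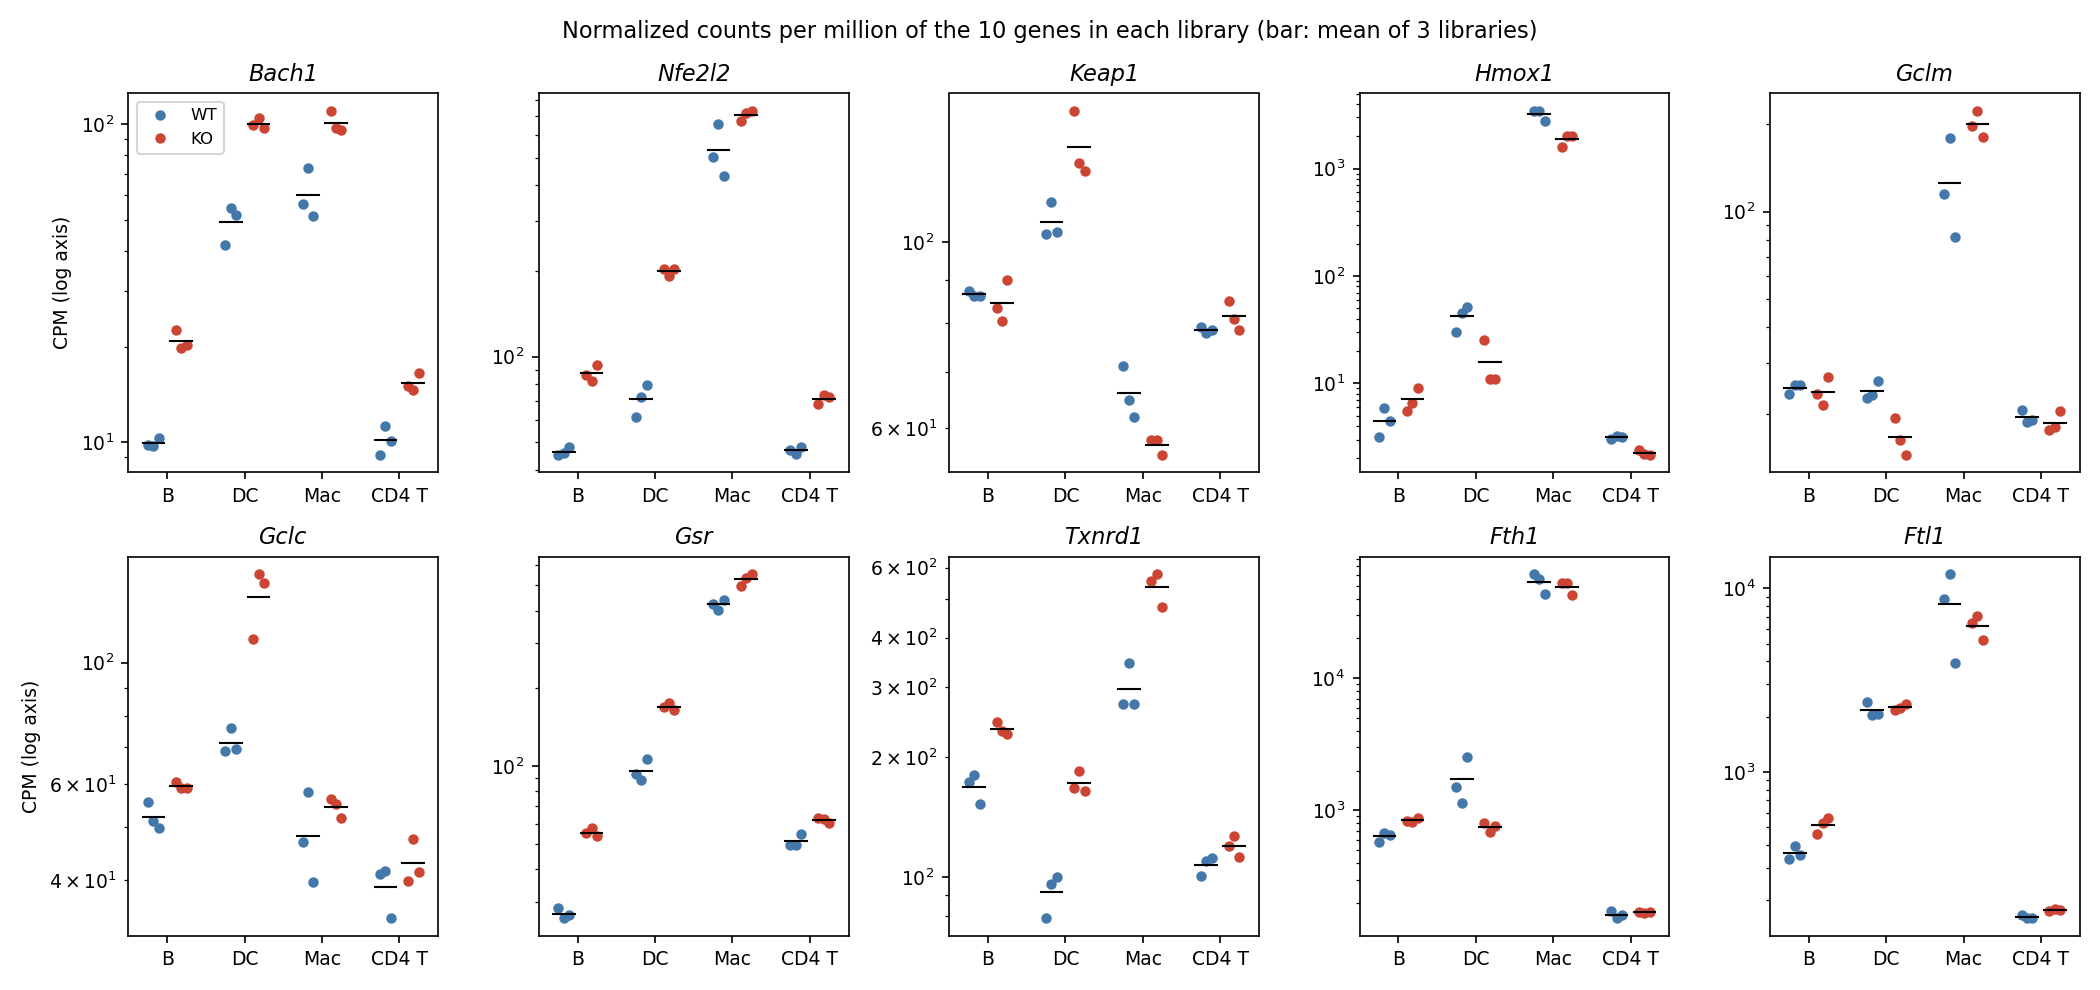
Normalized counts (CPM) of each of the 10 genes (log axis, 1 panel a gene) in B cells, dendritic cells (DC), macrophages (Mac) and CD4 T cells; each point is a library, blue for WT and red for KO, and each bar is the mean of 3. Bach1, Nfe2l2, Gsr and Txnrd1 lie higher in KO than in WT in all 4 cell types with no overlap of the libraries, while Hmox1 and Fth1 lie lower in KO dendritic cells.

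The first question was whether the regulators themselves changed without miR-155. Bach1 was 22.6, 19.9 and 20.3 CPM in the 3 KO and 9.78, 9.74 and 10.3 in the 3 WT B cell libraries. In dendritic cells it was 99.1, 105 and 97.6 in KO and 41.6, 54.7 and 51.8 in WT. Every KO library lay above every WT library in both cell types. In macrophages Bach1 was 110.3, 97.2 and 95.95 CPM in KO and 56.1, 72.7 and 51.4 in WT. For CD4 T cells it was 15.04, 14.6 and 16.5 in KO and 9.13, 11.2 and 10.1 in WT. The libraries did not overlap there either. The log2 fold change, KO minus WT, was 1.07 (SE 0.10, edgeR adjusted p = 1.16e-05) in B cells, 1.03 (SE 0.10, edgeR adjusted p = 1.21e-04) in dendritic cells and 0.60 (SE 0.11, edgeR adjusted p = 0.024) in CD4 T cells, so Bach1 rose in these 3 cell types. In macrophages it was 0.78 (SE 0.15, edgeR adjusted p = 0.066), which missed the threshold. With macrophage libraries of the same replicate number taken as pairs, as a block, the macrophage value was 0.79 (adjusted p = 0.043). Whether such libraries are true pairs is not given. The T cell call was lost when KO replicate 1, 2 or 3 or WT replicate 2 was left out, with log2 fold changes of 0.54 to 0.68 and adjusted p of 0.053 to 0.11.

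Nfe2l2, the gene of the activator, also lay higher in every KO library than in any WT library of the same cell type. In B cells it was 86.5, 82.3 and 93.7 CPM in KO and 45.1, 45.8 and 48.1 in WT. In dendritic cells it was 204, 192 and 203 in KO and 61.4, 72.4 and 79.4 in WT, the widest gap of the 4 cell types. In macrophages the groups came close, at 675, 722 and 733 in KO and 505, 658 and 433 in WT. CD4 T cells gave 68.4, 73.3 and 71.9 in KO and 47.1, 45.5 and 48.2 in WT. Nfe2l2 rose by 0.92 (SE 0.07, edgeR adjusted p = 6.17e-07) on the log2 scale in B cells, 1.49 (SE 0.10, edgeR adjusted p = 1.32e-05) in dendritic cells and 0.60 (SE 0.06, edgeR adjusted p = 1.81e-04) in CD4 T cells. In macrophages the value was 0.45 (SE 0.17, edgeR adjusted p = 0.23). The 3 calls held in each of the 6 fits per cell type that left out a library.

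Keap1 rose in dendritic cells, from 102, 112 and 103 CPM in WT to 143, 124 and 122 in KO, a log2 fold change of 0.30 (SE 0.08, edgeR adjusted p = 0.027). Without TMM scaling, which moved the median of all genes in dendritic cells by -0.12, it was 0.19 (adjusted p = 0.13), and the call was also lost without KO replicate 1, 2 or 3 or WT replicate 3 (adjusted p of 0.055 to 0.12). In B cells, macrophages and CD4 T cells the log2 fold changes of Keap1 were -0.03 (adjusted p = 0.85), -0.18 (adjusted p = 0.38) and 0.05 (adjusted p = 0.65), and the macrophage libraries did not overlap, at 58.05, 58.1 and 55.7 CPM in KO and 71.2, 64.9 and 61.9 in WT.

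**Figure D2:**
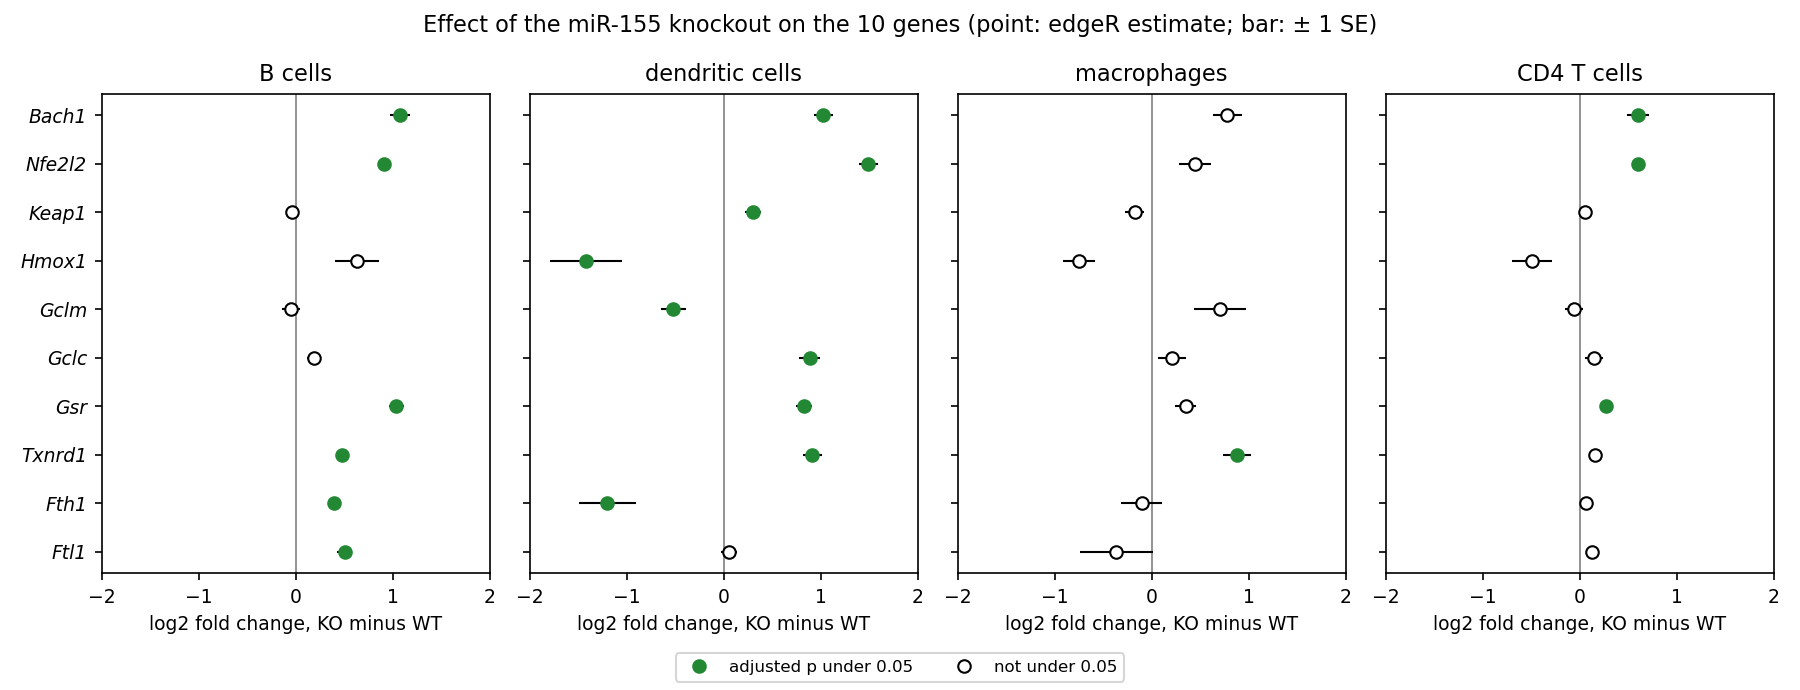
Log2 fold change of each of the 10 genes, KO minus WT, in the 4 cell types; points are edgeR estimates, bars are 1 SE on either side, and filled points have an adjusted p under 0.05. In B cells 6 filled points lie right of 0, where 2.09% of all genes tested rose and 1.11% fell. In dendritic cells 6 lie right and those of Hmox1, Gclm and Fth1 left, where 12.2% rose and 9.42% fell. Macrophages have 1 to the right (0.55% of all genes rose, 0.336% fell) and CD4 T cells 3 (1.35% rose, 0.798% fell).

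Among the enzymes that regenerate reduced glutathione and thioredoxin, Gsr and Txnrd1 rose in more than 1 cell type. Gsr returns oxidized glutathione to its reduced form. It was 55.1, 57.6 and 53.6 CPM in KO and 28.3, 25.8 and 26.7 in WT B cells, and 169, 176 and 164 in KO and 93.8, 88.2 and 106 in WT dendritic cells. In macrophages it was 499, 534 and 552 in KO and 423, 403 and 441 in WT, and in CD4 T cells 63.1, 62.8 and 60.3 in KO and 49.7, 49.8 and 54.7 in WT. No KO library overlapped a WT library in any of the 4 cell types. Gsr rose by 1.04 (SE 0.08, edgeR adjusted p = 5.92e-07) in B cells, 0.83 (SE 0.08, edgeR adjusted p = 1.32e-04) in dendritic cells and 0.27 (SE 0.06, edgeR adjusted p = 0.038) in CD4 T cells. The macrophage value was 0.35 (SE 0.11, edgeR adjusted p = 0.17). The T cell call was lost with DESeq2 (adjusted p = 0.078), in the fit of all 24 libraries (adjusted p = 0.11) and without KO replicate 1, 2 or 3 or WT replicate 2 (adjusted p of 0.097 to 0.19).

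Txnrd1 reduces thioredoxin. It was 246, 234 and 229 CPM in KO and 174, 180.4 and 153 in WT B cells, 168, 185 and 165 in KO and 78.8, 95.9 and 100.2 in WT dendritic cells. Macrophages gave 556, 578 and 477 in KO and 272, 345 and 273 in WT, and CD4 T cells 119.9, 127 and 112 in KO and 100.5, 109.5 and 112 in WT. The KO libraries lay above the WT libraries throughout, by a margin of under 1 CPM in T cells (112.2 for the lowest KO and 111.8 for the highest WT library). Txnrd1 rose by 0.48 (SE 0.06, edgeR adjusted p = 2.72e-04) in B cells, 0.92 (SE 0.10, edgeR adjusted p = 1.64e-04) in dendritic cells and 0.88 (SE 0.14, edgeR adjusted p = 0.049) in macrophages, where it was the only one of the 10 genes called. Its value in T cells was 0.16 (SE 0.06, edgeR adjusted p = 0.17). The macrophage call was lost without KO replicate 1, 2 or 3 or WT replicate 1, with log2 fold changes of 0.82 to 0.96 and adjusted p of 0.18 to 0.25.

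The subunits of glutamate-cysteine ligase moved apart in dendritic cells. Gclc rose, from 68.9, 75.9 and 69.4 CPM in WT to 111, 145 and 139.7 in KO, by 0.89 (SE 0.11, edgeR adjusted p = 2.95e-04). Gclm fell, from 22.7, 23.3 and 25.98 in WT to 19.4, 16.3 and 14.5 in KO, with a log2 fold change of -0.52 (SE 0.13, edgeR adjusted p = 0.016). Neither gene's KO libraries overlapped its WT libraries. The Gclm call was lost without KO replicate 2 or 3 or WT replicate 3 (adjusted p of 0.063 to 0.078) and in the fit of all 24 libraries (adjusted p = 0.093). In the other cell types neither subunit was called. Gclm stood at -0.04 (adjusted p = 0.88) in B cells, 0.70 (adjusted p = 0.23) in macrophages and -0.06 (adjusted p = 0.79) in CD4 T cells, and Gclc at 0.19 (adjusted p = 0.17), 0.21 (adjusted p = 0.50) and 0.15 (adjusted p = 0.42). The macrophage Gclm libraries gave 198, 223 and 180.3 CPM in KO and 115, 180.0 and 81.8 in WT, so that WT replicate 2 almost reached the lowest KO library.

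Heme oxygenase 1, which frees iron from heme, went down in dendritic cells. Hmox1 was 25.3, 10.9 and 10.95 CPM in KO and 30.03, 44.98 and 51.8 in WT dendritic cells, and the highest KO library lay just under the lowest WT library. The log2 fold change was -1.42 (SE 0.37, edgeR adjusted p = 0.041). In macrophages, which express Hmox1 most, the libraries gave 1605, 2026 and 2004 CPM in KO and 3461, 3434 and 2749 in WT, a separation without overlap. The macrophage log2 fold change of -0.75 (SE 0.16, edgeR adjusted p = 0.088) missed the threshold. It passed with DESeq2 (log2 fold change -0.75, adjusted p = 2.99e-04), in the fit of all 24 libraries (log2 fold change -0.77, adjusted p = 0.019) and without WT replicate 3 (log2 fold change -0.84, adjusted p = 0.0063). In CD4 T cells Hmox1 was low, at 2.39, 2.20 and 2.16 CPM in KO and 3.04, 3.22 and 3.19 in WT (log2 fold change -0.49, adjusted p = 0.24). B cells went the other way without passing the test, at 5.56, 6.62 and 9.10 in KO and 3.16, 5.84 and 4.42 in WT (log2 fold change 0.63, adjusted p = 0.16).

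Ferritin stores iron in a shell built of heavy and light chains. The heavy chain gene Fth1 was 797, 693 and 759.6 CPM in KO and 1497, 1136 and 2543 in WT dendritic cells. The KO libraries lay close together and below all WT libraries, of which replicate 3 was the highest. Fth1 fell, with a log2 fold change of -1.20 (SE 0.29, edgeR adjusted p = 0.034). Ftl1 was 2182, 2216 and 2342 in KO and 2403, 2031 and 2066 in WT dendritic cells, with overlapping groups and a log2 fold change of 0.06 (SE 0.09, edgeR adjusted p = 0.69). In B cells both chains rose. Fth1 was 829, 822 and 871 CPM in KO and 577, 676 and 657 in WT (log2 fold change 0.40, SE 0.06, edgeR adjusted p = 6.23e-04). Ftl1 was 457, 526 and 563 in KO and 334, 397 and 355 in WT (log2 fold change 0.51, SE 0.08, edgeR adjusted p = 0.0044). Both B cell calls were lost in the fit of all 24 libraries, which shares 1 dispersion per gene over the cell types (adjusted p of 0.64 and 0.55). In macrophages neither chain was called, at -0.11 (adjusted p = 0.82) for Fth1 and -0.36 (adjusted p = 0.64) for Ftl1. Ftl1 in WT macrophages ranged widely, at 8764, 11921 and 3926 CPM against 6469, 7020.0 and 5253 in KO. In CD4 T cells the values were 0.07 (adjusted p = 0.55) for Fth1 and 0.13 (adjusted p = 0.12) for Ftl1, whose KO libraries at 175, 179 and 178 CPM lay above the WT libraries at 166, 159.5 and 161.

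Markers of other cell types moved with these results in dendritic cells. The 9 macrophage markers in the files summed to 75.9, 103 and 211 CPM in WT and 71.9, 58.9 and 60.4 in KO dendritic cells, in the order of the replicates. All 8 tested members had negative log2 fold changes and 4 of them fell, where 9.42% of all genes tested fell. Vsig4 was at 0 in all 6 libraries. The 7 neutrophil markers summed to 3.55, 3.13 and 13.1 in WT and 2.11, 1.64 and 1.83 in KO, with Ly6g and Cxcr2 at 0. WT replicate 3 held the most macrophage and neutrophil marker RNA, and also the highest Fth1 and Hmox1. Among the WT libraries it was the highest for 6 of the 10 genes, also Nfe2l2, Gsr, Txnrd1 and Gclm, of which all but Gclm rose in KO. WT replicate 2 held more macrophage marker RNA than WT replicate 1, with more Hmox1 (44.98 against 30.03 CPM) but less Fth1 (1136 against 1497 CPM). Of the other lists, 1 of 6 tested dendritic cell markers, 1 of 4 B cell markers and 2 of 4 plasma cell markers rose, beside 12.2% of all genes. Without that library the log2 fold change of Fth1 was -0.81 (adjusted p = 0.0034) and that of Hmox1 -1.24 (adjusted p = 0.034), and 7 of the 10 genes were called. The Fth1 call was lost without KO replicate 1, 2 or 3 or WT replicate 1 (adjusted p of 0.071 to 0.13), and the Hmox1 call without KO replicate 2 or 3 or WT replicate 1 or 2 (adjusted p of 0.090 to 0.12). With no filter on low counts neither was called (adjusted p of 0.0988 for Fth1 and 0.12 for Hmox1). The part of macrophage RNA in these falls was not tested, and in such bulk samples fewer cells of a type and less RNA per cell cannot be told apart.

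**Figure D3:**
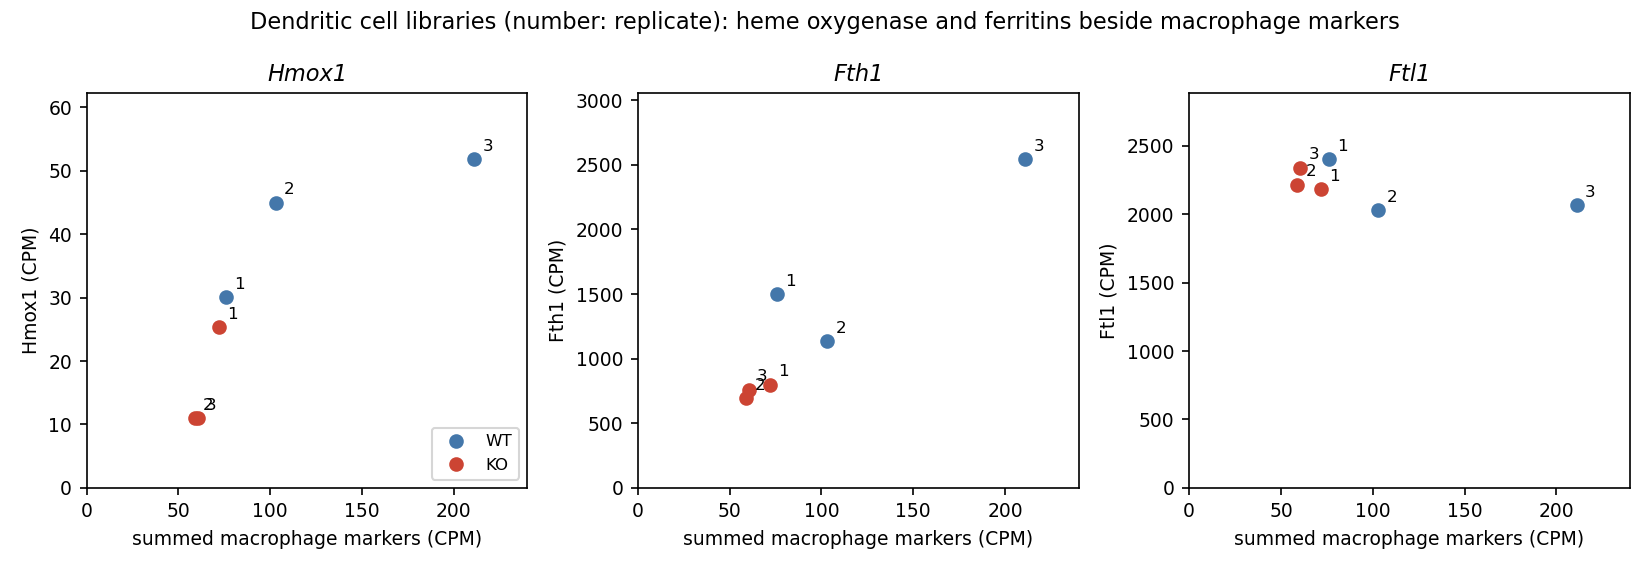
Hmox1, Fth1 and Ftl1 (CPM, vertical axes from 0) against the summed CPM of 9 macrophage markers in the 6 dendritic cell libraries; blue points are WT, red points are KO, and the number beside each point is its replicate. WT replicate 3 stands farthest right, at 211 CPM of marker RNA, and is highest for Hmox1 and Fth1 but not for Ftl1.

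Counted over each cell type, 6 of the 10 genes rose and none fell in B cells, where 2.09% of all 10151 genes tested rose and 1.11% fell. In dendritic cells 6 of the 10 rose and Hmox1, Gclm and Fth1 fell, where 12.2% of 10536 genes rose and 9.42% fell. In macrophages 1 rose (2 with replicate pairs as a block), where 0.55% of 10730 genes rose and 0.336% fell. Among CD4 T cell values 3 rose, where 1.35% of 10396 genes rose and 0.798% fell. Because the 10 genes were chosen with earlier results of these data known, their counts beside the shares of all genes are a description. They are not a test of the pathway. All 10 genes passed the filter on low counts in every cell type. Libraries of the genotypes did not overlap for 7 genes of B cells, 9 of dendritic cells, 7 of macrophages and 6 of T cells, against 21.7, 41.2, 24.6 and 22.6% of all genes tested. The median log2 fold change of the 10 genes was 0.49 for B cells, 0.56 for dendritic cells, 0.28 for macrophages and 0.14 for T cells, beside medians of all genes tested of -0.0024, -0.011, -0.020 and -0.0012. Bach1 and Nfe2l2, the 2 genes with an 8mer, and Gsr, with a 7mer-A1, rose in the same 3 cell types. Of the 5 genes with no site, Txnrd1 rose in 3 cell types, Gclc in 1 and Ftl1 in 1, Fth1 rose in 1 and fell in 1, and Gclm fell in 1.

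In macrophages the count of called genes depended on which library was left out. Among WT macrophages, replicate 3 was the lowest for 8 of the 10 genes and replicate 2 the highest for 6. Without WT replicate 3, 5 genes passed the threshold, namely Bach1 (log2 fold change 0.68, adjusted p = 0.010), Hmox1, Gsr (log2 fold change 0.39, adjusted p = 0.025), Txnrd1 and Ftl1 (log2 fold change -0.70, adjusted p = 0.030). Without WT replicate 2, 3 genes passed, Bach1, Gclm (log2 fold change 1.05, adjusted p = 0.043) and Txnrd1. Without any 1 of the other 4 libraries none passed. In the fit of all 24 libraries Bach1, Nfe2l2, Hmox1, Gclm, Gsr and Txnrd1 passed, and with DESeq2 Bach1, Hmox1, Gsr and Txnrd1. Calls over all genes moved as well, from 59 up and 36 down to 1489 up and 1257 down without WT replicate 3. They were 325 up and 261 down with DESeq2, and 813 up and 942 down of 12249 genes in the fit of all 24 libraries. The summed macrophage markers were 12906 to 14009 CPM in KO and 15583 to 17722 in WT macrophages. Of the 9 tested members 1 fell, where 0.336% of all genes tested fell. The log2 fold changes of these markers were negative for 7 and positive for 2, with a median of -1.13 beside -0.020 for all genes tested. The 6 stromal markers summed to 324 to 753 in KO and 129 to 343 in WT macrophages. Neutrophil markers summed to 663, 661 and 839 in the WT and 663, 671 and 727 in the KO macrophage replicates. Ly6g and Cxcr2 were at 0 in all of these libraries, and S100a9 and Mpo were also at 0 in KO. In B cells the 6 T cell markers summed to 50.9 to 58.3 in KO and 74.2 to 82.5 in WT. Both tested members fell, where 1.11% of all genes tested fell. Cd3e, Cd3g and Cd4 were at 0 in all WT B cell libraries, and Cd3g was at 0 in all KO ones. Whether RNA of other cell types has a part in the values of the 10 genes was not tested.

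A single model of the 24 libraries compared the KO effects of the cell types. It shares 1 dispersion per gene over cell types that differ in spread, so its SEs can be too small where libraries vary most. For Fth1 the SE was 0.27 for dendritic cells minus macrophages, under the 0.29 of dendritic cells in their own fit. The KO effect differed over the 4 cell types for 8 of the 10 genes, against 12.6% of 12249 genes tested. The 2 exceptions were Bach1 (adjusted p = 0.17) and Ftl1 (adjusted p = 0.23), although both passed without macrophage WT replicate 3 (adjusted p = 0.045 and 6.65e-05). Of the other 8, Hmox1 was lost with replicate pairs as a block (adjusted p = 0.078) and Keap1 without TMM scaling (adjusted p = 0.0996). Gclm was lost without dendritic cell KO replicate 3, macrophage KO replicate 2 or macrophage WT replicate 1 (adjusted p of 0.051 to 0.055). The count over all genes was 3619 without macrophage WT replicate 3, against 1548. The rise of Nfe2l2 was greater in dendritic cells than in macrophages and T cells. The difference of its KO effects was -0.58 (SE 0.16, adjusted p = 0.033) for B minus dendritic cells, 1.07 (SE 0.15, adjusted p = 1.28e-04) for dendritic cells minus macrophages and 0.89 (SE 0.16, adjusted p = 0.0015) for dendritic minus T cells, on the log2 scale. The difference from B cells was lost without TMM scaling (log2 difference -0.46, adjusted p = 0.062) and without B cell KO replicate 1 or 2, any 1 of the B cell WT or dendritic cell KO replicates, or dendritic cell WT replicate 1 (adjusted p of 0.052 to 0.0975).

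Gsr split the cell types into B and dendritic cells on one side and macrophages and T cells on the other. Its KO effect was greater in B cells than in macrophages by 0.71 (SE 0.10, adjusted p = 7.67e-04) and than in T cells by 0.77 (SE 0.11, adjusted p = 0.0026), and greater in dendritic cells than in macrophages by 0.49 (SE 0.10, adjusted p = 0.0033) and than in T cells by 0.55 (SE 0.10, adjusted p = 0.0024). Neither the pair of B and dendritic cells nor that of macrophages and T cells differed by this test, at 0.21 (SE 0.11, adjusted p = 0.28) for B minus dendritic cells and 0.06 (SE 0.10, adjusted p = 0.85) for macrophages minus T cells. The KO effect on Txnrd1 was greater in dendritic cells and in macrophages than in T cells, by 0.76 (SE 0.15, adjusted p = 0.0029) and 0.70 (SE 0.15, adjusted p = 0.0072).

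The other differences between cell types were found for Hmox1, Fth1, Gclm, Gclc and Keap1. For Hmox1 the KO effect in B cells exceeded that in dendritic cells by 2.05 (SE 0.41, adjusted p = 0.0041). For Fth1 it was 1.60 (SE 0.27, adjusted p = 0.0013) for B minus dendritic cells, -1.07 (SE 0.27, adjusted p = 0.014) for dendritic cells minus macrophages and -1.26 (SE 0.28, adjusted p = 0.0070) for dendritic minus T cells. Without dendritic cell WT replicate 3, the library with the most macrophage marker RNA, the Fth1 difference for dendritic cells minus macrophages was -0.68 (adjusted p = 0.0501) and the call was lost. For Gclm the effect in dendritic cells lay below that in macrophages by a log2 difference of -1.20 (SE 0.27, adjusted p = 0.0071). Gclc rose more in dendritic cells than in B cells, macrophages and T cells, with differences of -0.70 (SE 0.16, adjusted p = 0.012) for B minus dendritic cells, 0.70 (SE 0.16, adjusted p = 0.0084) for dendritic cells minus macrophages and 0.74 (SE 0.17, adjusted p = 0.0081) for dendritic minus T cells. The effect on Keap1 was greater in dendritic cells than in macrophages by 0.50 (SE 0.10, adjusted p = 0.0034). Of the 60 comparisons of a gene's KO effect between a pair of cell types, 18 passed the threshold. There were 4 of 10 genes for B against dendritic cells, 1 for B cells against macrophages, 1 for B against T cells, 6 for dendritic cells against macrophages, 5 for dendritic against T cells and 1 for macrophages against T cells. Over all genes the shares were 5.63, 2.67, 0.0571, 9.27, 6.1 and 3.63% in the same order.

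Other genes of the pathway were followed in 4 lists. Among 14 partners and regulators of the 2 factors, 1 of 12 tested rose in B cells, Prkcd, a kinase that phosphorylates NRF2 (log2 fold change 0.20, SE 0.05, edgeR adjusted p = 0.033), and 1 of 13 fell in dendritic cells, Fbxl17, an adaptor of the ubiquitin ligase that removes BACH1 (log2 fold change -0.43, SE 0.11, edgeR adjusted p = 0.020). Of all genes tested, 2.09% rose in B cells and 9.42% fell in dendritic cells. The Prkcd call was lost in the fit of all 24 libraries (adjusted p = 0.54) and without KO replicate 2 or WT replicate 1, 2 or 3 (adjusted p of 0.079 to 0.14), and the Fbxl17 call with DESeq2 (adjusted p = 0.051) and without KO replicate 1 or 3 or WT replicate 3 (adjusted p of 0.064 to 0.092). None of 14 was called in macrophages and none of 13 in CD4 T cells. The median log2 fold changes of this list were 0.096, 0.074, 0.16 and 0.080 in B cells, dendritic cells, macrophages and T cells. The list includes the small MAF genes Mafg, Mafk and Maff and the Bach1 homologue Bach2, none of which was called.

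Among 21 further targets of NRF2, none of 17 tested was called in B cells and none of 13 in CD4 T cells. In dendritic cells 2 of 18 rose and 2 fell, near the shares of all genes there (12.2% rose and 9.42% fell). Idh1, an enzyme that makes NADPH, went from 204, 174 and 165 CPM in WT to 227, 289.8 and 277 in KO (log2 fold change 0.55, SE 0.11, edgeR adjusted p = 0.0053). Ephx1, an epoxide hydrolase, rose by 1.07 (SE 0.31, edgeR adjusted p = 0.030). Gss, glutathione synthetase, fell (log2 fold change -0.70, SE 0.21, edgeR adjusted p = 0.036), as did Abcc4, an exporter of organic anions (log2 fold change -0.92, SE 0.16, edgeR adjusted p = 0.0026). Idh1 and Abcc4 were called under each alternative tried. Gss was lost with DESeq2 (adjusted p = 0.10) and without KO replicate 1, 2 or 3 or WT replicate 3 (adjusted p of 0.056 to 0.15). Ephx1 was lost without those same libraries (adjusted p of 0.057 to 0.13), with DESeq2 (adjusted p = 0.089) and in the fit of all 24 libraries (adjusted p = 0.35). In macrophages 1 of 21 rose, where 0.55% of all genes did. It was Slc7a11, which imports the cystine needed for glutathione, at 705, 648 and 640.5 CPM in KO and 210.2, 232 and 308 in WT (log2 fold change 1.44, SE 0.17, edgeR adjusted p = 0.032). Its call was lost without KO replicate 1, 2 or 3 or WT replicate 1 (adjusted p of 0.15 to 0.18). The medians of the list were 0.037, -0.18, 0.017 and 0.0056 in the order of cell types given above.

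Of 23 genes of iron and heme handling, 21 were in the files. None of 17 tested was called in B cells and none of 15 in CD4 T cells. In dendritic cells 2 of 18 rose and 1 fell, beside 12.2% and 9.42% of all genes. Ncoa4, the receptor that delivers ferritin to lysosomes for breakdown, was 174, 174 and 167 CPM in KO and 109, 105 and 111 in WT (log2 fold change 0.67, SE 0.07, edgeR adjusted p = 1.36e-04). Fbxl5, the iron-sensing adaptor that degrades an iron regulatory protein, rose by 0.30 (SE 0.07, edgeR adjusted p = 0.014). Blvra, biliverdin reductase, which acts on the product of heme oxygenase, fell (log2 fold change -0.64, SE 0.14, edgeR adjusted p = 0.0088). Ncoa4 and Blvra were called under each alternative tried, while Fbxl5 was lost without TMM scaling (log2 fold change 0.18, adjusted p = 0.081) and without KO replicate 1 or 2 (adjusted p of 0.055 to 0.079). In macrophages 1 of 20 rose, again Fbxl5, at 646, 607 and 705 CPM in KO and 361, 341 and 374 in WT (log2 fold change 0.89, SE 0.12, edgeR adjusted p = 0.037), where 0.55% of all genes rose. That call was lost without KO replicate 1, 2 or 3 or WT replicate 1 (adjusted p of 0.18 to 0.20). The medians were 0.015, -0.0024, -0.046 and 0.016.

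Of 16 peroxide, superoxide and thiol enzymes, 1 of 16 tested rose and 3 fell in dendritic cells, where 12.2% of all genes rose and 9.42% fell. Sod3, the extracellular superoxide dismutase, was 10.4, 19.1 and 15.7 CPM in KO and 3.78, 3.73 and 3.85 in WT (log2 fold change 1.99, SE 0.23, edgeR adjusted p = 2.55e-04). Prdx5, a peroxiredoxin, fell (log2 fold change -0.71, SE 0.15, edgeR adjusted p = 0.0074), as did Txnip, which binds and blocks thioredoxin (log2 fold change -0.71, SE 0.15, edgeR adjusted p = 0.0069), and Glrx, a glutaredoxin (log2 fold change -0.58, SE 0.17, edgeR adjusted p = 0.034). Sod3 and Txnip were called under each alternative tried, and Prdx5 was lost without WT replicate 1 (adjusted p = 0.12). Glrx was lost with the replicate block, DESeq2 and the fit of all 24 libraries (adjusted p of 0.051, 0.13 and 0.15) and without any 1 library other than WT replicate 3 (adjusted p of 0.052 to 0.12). None of 15 was called in B cells, none of 16 in macrophages and none of 15 in CD4 T cells. The medians were 0.11, -0.16, -0.17 and 0.022.

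**Figure D4:**
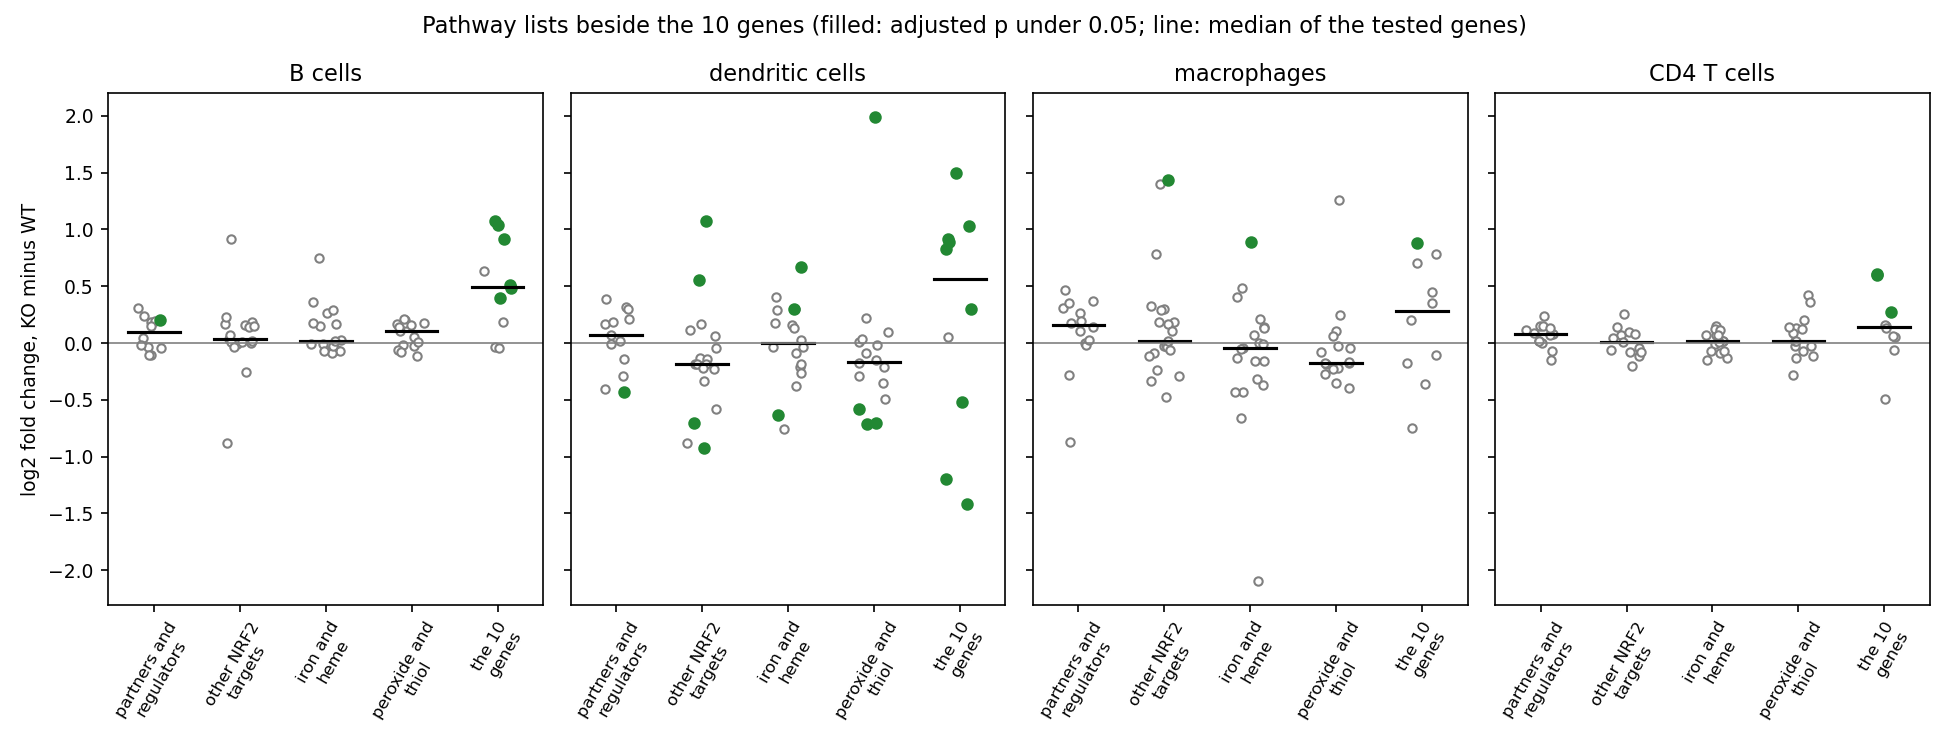
Log2 fold change, KO minus WT, of every tested gene of the 4 pathway lists and of the 10 genes in each cell type; filled points have an adjusted p under 0.05 and lines are medians of the tested genes. The medians of the 10 genes lie at 0.49, 0.56, 0.28 and 0.14, and in dendritic cells, where 12.2% of all genes tested rose and 9.42% fell, called genes of the lists lie on both sides of 0.

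Promoters of 7 of the 10 genes, all but Hmox1, Gclc and Gsr, were matched in RefSeq (GRCm38.p6, 250 bases before to 50 after a start site), with 10 start sites in all. They were searched for TGACNNNGC on both strands (reverse GCNNNGTCA), the core of the element to which BACH1 and NRF2 bind. The letters were found in 3 of the 10 promoters, at 240 bases before the start of Nfe2l2, 134 before that of Gclm and 92 before 1 start of Txnrd1. They were found in 12.4% of 32851 mouse promoters of that length. The 3 stretches are shown with the match in capitals, as the ones found among the 7 genes searched; the match of Nfe2l2 is on the strand of the gene and the others are on the opposite strand.
Nfe2l2, chr2:75704879-75704913, minus strand: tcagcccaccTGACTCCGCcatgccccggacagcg
Gclm, chr3:122245407-122245447, plus strand: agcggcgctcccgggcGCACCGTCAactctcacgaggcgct
Txnrd1, chr10:82859098-82859138, plus strand: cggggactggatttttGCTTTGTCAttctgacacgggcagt

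The 3 genes gave different KO values. In dendritic cells Nfe2l2 and Txnrd1 rose (1.49 and 0.92) and Gclm fell (-0.52), and in B cells Nfe2l2 and Txnrd1 rose (0.92 and 0.48) while Gclm stood at -0.04. No binding was measured, and sequence farther from the start sites was not searched.

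Over the 24 libraries, the genes whose log2 CPM followed that of Bach1 most closely were Sbf2 (Pearson r = 0.968), Mcl1 (0.968) and Mlycd (0.962). For Nfe2l2 they were Qk (0.981), Mdga1 (0.973) and Gadd45a (0.969), and for Hmox1 Laptm5 (0.994), Glmp (0.994) and Ifnar2 (0.994). Within the pathway, Nfe2l2 followed Gsr (0.963) more closely than Bach1 (0.828), and Hmox1 followed Fth1 (0.982). Gclc and Gclm showed r = -0.209. The libraries fall into 4 cell types and share the normalization, so these values describe likeness, ranked over 12249 genes, and are not tests.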

How the data were processed

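The authors deposited raw read counts by gene symbol, as whole numbers without normalization, for 24 libraries and 20673 genes. Per the submitters' processing notes, cutadapt, STAR and mm9 were used; how reads were counted, and whether by strand, is not given in the sources used here. Summary entries that stand for no gene held 51.7 to 61.4% of the counts of a library and were left out. Nearly all of these were reads in no feature, from 51.4% in macrophage KO replicate 2 to 61.1% in dendritic cell WT replicate 1. Groups come from the sample titles. Within a group, libraries differed by more than counting noise (chi-square per gene of 2.08 to 161 over genes with at least 20 counts), so none was taken for a copy of another.

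KO and WT were compared within each cell type with edgeR 4.0.16 in R 4.3.3 (TMM, filterByExpr, robust glmQLFit and glmQLFTest, two-sided, Benjamini-Hochberg over all genes, calls at an adjusted p under 0.05). Differences between cell types came from 1 fit of all 24 libraries. The SE was taken from the fold change and its F value. Correlations used log2 CPM with a prior count of 2. The steps were tested on simulated data in which all genes and cell types had the same dispersion. The unequal spread of the libraries was therefore not covered. The alternatives were DESeq2 1.42.0, RLE size factors, no TMM, other filters (none, or 1 CPM in 3 libraries), the 24-library fit, replicate numbers as a block and each library left out. The same alternatives for the called genes of the pathway lists were added after seeing the data.

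Deviations of same-numbered KO and WT libraries correlated at 0.121, 0.227 and 0.313 in macrophages, all above 0.1. The numbers, taken from the titles, were therefore read as possible pairs there. Groups of 3 libraries cannot establish pairing, and T cell pairs with unlike numbers also passed 0.1, at 0.157 and 0.182. Over all cell types the same-numbered values ran from -0.185 to 0.313. The 10 genes, the pathway lists and the markers were chosen with earlier results of these data known. All 10 genes are named in each cell type, with up to 4 called genes of each list by size of change, and the 3 genes most like Bach1, Nfe2l2 and Hmox1. Sites and promoters come from annotation on GRCm38, not the build of the files.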

Additional observations from a re-analysis of the deposited data

Results flagged for a closer look

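The KO effect differed between the 4 cell types for 8 of the 10 genes, by the test of the difference itself in the edgeR fit of all 24 libraries. That fit shares 1 dispersion per gene over cell types that differ in spread. Of all 12249 genes tested 12.6% were called (1548 genes), and 3619 genes were called without macrophage WT replicate 3. The adjusted p over all genes was 4.05e-04 for Nfe2l2, 0.012 for Keap1, 0.012 for Hmox1 and 0.022 for Gclm. It was 0.0072 for Gclc, 7.71e-05 for Gsr, 0.0033 for Txnrd1 and 0.0022 for Fth1. Hmox1 was not called with replicate pairs as a block (adjusted p = 0.078), nor Keap1 without TMM scaling (adjusted p = 0.0996), nor Gclm without any 1 of 3 libraries (adjusted p of 0.051 to 0.055). The log2 fold changes in the order B cells, dendritic cells, macrophages, T cells were 0.92, 1.49, 0.45 and 0.60 for Nfe2l2, and 1.04, 0.83, 0.35 and 0.27 for Gsr. For Fth1 they were 0.40, -1.20, -0.11 and 0.07, and for Hmox1 0.63, -1.42, -0.75 and -0.49. Groups of 3 libraries are too small for the test used here for a library that stands far from the others.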

How the results depend on the processing

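The count of 6 genes called in B cells was 4 to 8 over the alternatives and 6 without each library. In dendritic cells 9 genes were called, 7 to 9 over the alternatives and 5 to 8 when a library was left out, with 5 without KO replicate 2 or 3. In macrophages 1 gene was called, 2 with the replicate block, 4 with DESeq2 and 6 in the fit of all 24 libraries, and 0 to 5 when a library was left out. In CD4 T cells 3 were called, 2 or 3 over the alternatives and 1 to 3 when a library was left out, with 1 without any KO replicate or WT replicate 2; the cause of these shifts was not tested. The joint test called 7 or 8 genes over the alternatives and 7 to 10 without a library, losing Keap1 without TMM (adjusted p = 0.0996) and Hmox1 with the block (adjusted p = 0.078), and Gclm without 3 of the 24 libraries (adjusted p of 0.051 to 0.055). Of the 60 WT differences 51 were called, 51 or 52 over the alternatives and 50 to 53 without a library. Directions turned in Ftl1 in dendritic cells without TMM (-0.060), in Gclm in B cells without KO replicate 2 (-0.12 to 0.023 over the left-out libraries), in Ftl1 in macrophages without WT replicate 2 (-0.70 to 0.0017) and in Bach1 for WT B minus T cells without T cell WT replicate 2 (-0.11 to 0.042), none of which was called. They also turned in Bach1 for WT dendritic cells minus macrophages (0.14) and Gclc for WT macrophages minus T cells (-0.33) without TMM, and in Gclm for WT B minus dendritic cells with RLE size factors (-0.071) and DESeq2 (-0.071).

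In B, dendritic and T cells the same-numbered correlations did not all exceed 0.1, so the numbers were not read as pairs there. In B cells all 3 were above 0, at 0.093, 0.035 and 0.148, so pairing there was not settled. The names of the WT B cell files carry other numbers than the titles, which were followed, so the B cell block rests on that choice. There the block changed these calls: Hmox1 (log2 fold change 0.65, adjusted p = 0.0026) and Gclc (log2 fold change 0.19, adjusted p = 0.035) were called in B cells, and the calls of Hmox1 in dendritic cells (log2 fold change -1.45, adjusted p = 0.20) and Gsr in CD4 T cells (log2 fold change 0.27, adjusted p = 0.057) were lost. Counts of all genes called up and down moved by over 1.5 times with the block to 653 and 607 in B cells (212 and 113 otherwise) and to 171 and 94 in macrophages (59 and 36). They also moved with DESeq2 to 325 and 261 in macrophages. In the fit of all 24 libraries they were 67 and 14 in B cells, 813 and 942 in macrophages and 42 and 21 in CD4 T cells (140 and 83). Without TMM they were 844 and 2003 in dendritic cells (1286 and 993), with 140 down in CD4 T cells. With no filter on low counts, 193 and 57 genes fell in B cells and macrophages, and 256 rose and 222 fell in T cells. Without a library they ran from 0 (without KO replicate 1) to 1489 (without WT replicate 3) up and 0 to 1257 down in macrophages, 100 to 274 and 39 to 167 in B cells, 734 to 1610 and 442 to 1260 in dendritic cells, 22 to 321 and 10 to 277 in CD4 T cells, and 1121 to 3619 in the joint test, so the shares printed as background move with single libraries. In CD4 T cells Hmox1 rested on 23 to 37 reads a library.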
